A study of Mus musculus with 12 samples.

Results

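The genes described here are those whose transcripts were low in the mouse cecum at 3 h and 12 h after cauterization and, as a group mean, back near the sham control at 72 h. A gene belonged to the set if its brightest probe was well above background on all 3 sham arrays, if its mean log2 level lay at least 1.5 below the sham mean at both 3 h and 12 h, and if it lay between -0.5 and 0.5 of the sham mean at 72 h. Of 27248 named genes on the array, 17988 were well above background on all 3 sham arrays and 60 met the rule. The set was thus selected on the measured values at all 3 times, so the differences from the sham control are descriptions of the members and carry no test. The log2 level is log2 of the processed spot intensity minus the 75th percentile of the same array, so a difference of -1 is a halving of the signal relative to that percentile.

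The samples were ceca of C57BL/6 mice, 3 in each of 4 groups, hybridised one mouse per 1-colour Agilent array. In the cauterized groups the cecal surface was burned with bipolar forceps, a procedure that leads to adhesions, and the cecum was taken 3 h, 12 h or 72 h later. The sham control had the operation without the burn, and the study's methods place it at 0 h. No later sham group was taken, so cauterization cannot be told apart from the time that had passed since the operation. The labels call all mice male, but Xist, the X-inactivation RNA of female cells, was well above background on all 12 arrays and the Y-linked Ddx3y on 0.

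The cecal wall is covered on its outer side by the mesothelium, a single cell layer that carries a polarised outer membrane and takes part in adhesion formation when it is injured. Fat cells lie next to that layer where the mesentery meets the gut wall. They store triglyceride in a droplet coated by perilipin, release adiponectin into the blood and break the store down when the β3-adrenergic receptor is stimulated. Beneath the serosa lie smooth muscle, whose tone is relaxed by nitric oxide through soluble guanylate cyclase, and the fibroblasts that keep up the matrix. Because the arrays measured RNA of the whole tissue, fewer cells of a type and less RNA per cell cannot be told apart in any result below.

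On each array 60.2% to 65.2% of probes exceeded background clearly, no spot was saturated, and replicate arrays of a group correlated at 0.985 to 0.992 across probes. The epithelial and smooth muscle genes that mark gut tissue were well above background in the sham control, for 14 of 14 and 15 of 15 genes. The sham arrays, the 3 h arrays and 12 h replicates 1 and 2 lay on the first slide. The third 12 h array and all 72 h arrays lay on the second.

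All 60 members had their 3 h arrays below every sham array, and 59 did so at 12 h. The exception was Atp6v0a4, whose second 12 h array reached into the sham range. The median difference of the members was -1.89 at 3 h and -1.92 at 12 h, against 0.07 and -0.01 over all named genes. At 72 h it was -0.18, against -0.13 over all named genes. By limma, 54 members were called lower at 3 h, where 4.27% of all named genes were called lower and 3.81% higher. A call needed more than a 2-fold change with an adjusted p under 0.05. At 12 h 55 members were called lower, where 5.57% of all named genes were called lower and 4.79% higher. At 72 h no member was called, as the limits of the set require, while 4.38% of all named genes were called lower and 5.56% higher. Since these contrasts chose the members, nothing is read from the members' counts.

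**Figure D1:**
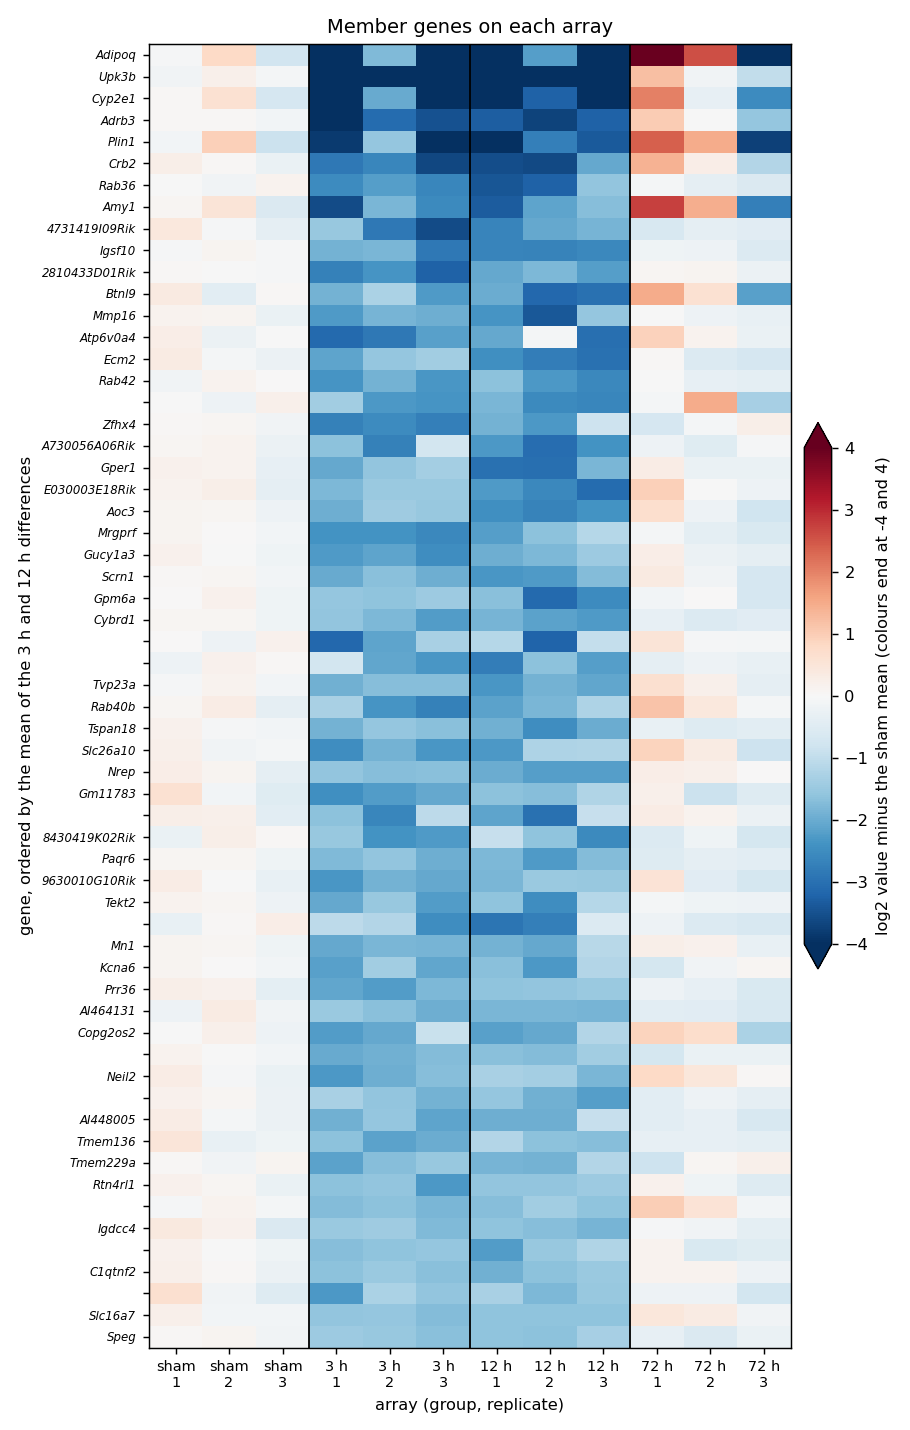
Log2 level of each of the 60 member genes (rows) on each of the 12 arrays (columns), as the difference from the gene's sham mean. Rows of genes named in the text carry their symbol. Blue is lower and red is higher, with colours ending at -4 and 4. The 3 h and 12 h columns are blue throughout apart from single arrays of dim genes. Adipoq, Upk3b, Cyp2e1, Adrb3, Plin1 and Crb2, the top rows, are red on 72 h replicate 1 and blue on replicate 3. On replicate 2 Adipoq and Plin1 are red, while Upk3b, Cyp2e1 and Adrb3 lie slightly below the sham mean.

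Return to the sham level was the position of a minority of the genes that were low early. Of 219 genes at or below -1.5 at both 3 h and 12 h, 48 (21.9%) were still at or below -1.5 at 72 h and 78 (35.6%) lay between -1.5 and -0.5. The 60 members made up 27.4%, and 33 genes (15.1%) lay above 0.5. The genes that stayed low had a median of -2.14 at 3 h and -2.72 at 12 h. Those above 0.5 at 72 h had medians of -2.10 and -2.03.

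**Figure D2:**
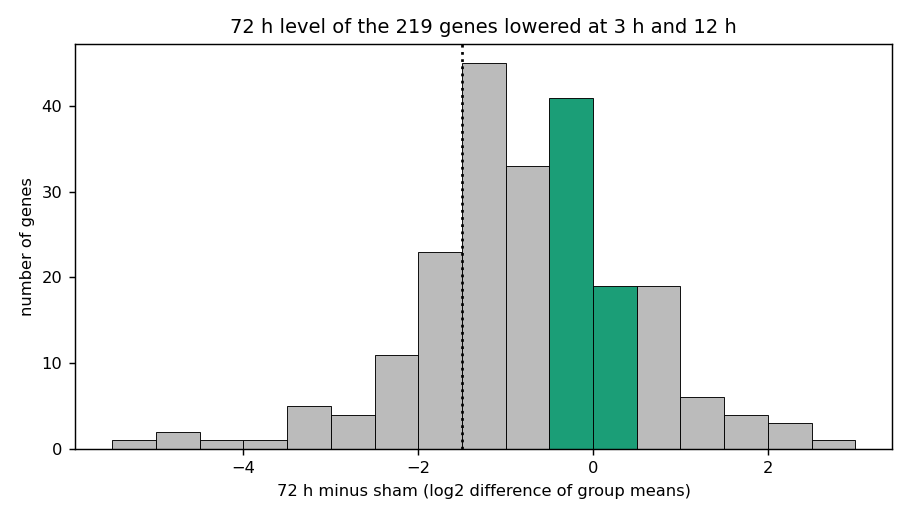
Number of genes by their 72 h difference from the sham mean (log2), for the 219 genes lowered at both early times. The green bars between -0.5 and 0.5 are the 60 members, and the dotted line marks -1.5, below which 48 genes stayed. The distribution has no gap at the limits of the set.

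The limits passed through a continuous range. Nearest inside the 3 h limit were Gpm6a (-1.54), Speg (-1.55) and Igdcc4 (-1.55), and nearest outside were Car8 (-1.47), Tbc1d24 (-1.45) and Gng7 (-1.45). At the 12 h limit Neil2, Tmem136 and Gm11783 lay inside at -1.51 each, and Dzank1 (-1.47), Cc2d2a (-1.47) and Ntn3 (-1.45) outside. At 72 h the lower limit fell between AI464131, 4731419I09Rik and 8430419K02Rik (-0.50, -0.48 and -0.48) and, among those outside it, Dbp and Zfp454 (-0.52 and -0.54). The upper limit fell between members such as Rab40b and Amy1 (0.49 and 0.48) and A930003A15Rik, Retn and Pabpc4l (0.50, 0.50 and 0.51). Retn, the fat cell hormone resistin, was therefore left out by a margin far below the spread of its arrays.

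Many members were dim at the early times. 32 members were well above background on all 12 arrays. At 3 h 21 members were above background on no array and 5 on 1 or 2 arrays, and at 12 h the numbers were 19 and 7. For 17 members no early array was above background. In such groups the level is only roughly bounded, and the fold is given as "at least". It compares the sham mean with the lowest signal that counted as well above background on each array, or the measured level where higher. A spot could lie above that lowest signal without counting as above background, so these folds are no strict bounds. Ranges and medians over several members take such groups at their measured level. At 72 h 52 members were above background on all 3 arrays and the other 8 on 1 or 2.

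6 members are known from fat cells, a grouping made after the names had been seen, and their differences ran from -5.20 to -1.60 at 3 h, from -5.41 to -1.68 at 12 h and from -0.31 to 0.04 at 72 h. Adipoq encodes adiponectin, the fat cell hormone that raises insulin sensitivity. Its log2 levels were -0.01, 0.83 and -0.72 in the sham control, -6.78, -1.75 and -6.99 at 3 h, -6.88, -2.18 and -7.06 at 12 h, then 3.99, 2.61 and -7.42 at 72 h. Only the second array at 3 h and at 12 h was above background, so each early mean joins 1 measured value and 2 values at background. At 72 h 2 arrays lay above every sham array and the third was below every early array. The 72 h difference of -0.31 (SD of the 72 h level 6.22, n = 3) is the mean of these extremes, and without 72 h replicate 3 it was 3.27.

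Plin1 encodes perilipin 1, the protein that coats the lipid droplet and controls its breakdown. It measured -2.22, -1.17 and -2.97 in the sham control, -5.94, -3.66 and -6.43 at 3 h, -6.42, -4.86 and -5.49 at 12 h, and finally 0.26, -0.64 and -5.84 at 72 h. As for Adipoq, the second 3 h array was the highest of its group and the third 72 h array fell to the early level. At 12 h no array was above background, and Plin1 was at least 7.05-fold lower than in the sham control. Its 72 h difference was 0.04 over all 3 arrays and 1.93 without replicate 3.

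Adrb3 encodes the β3-adrenergic receptor, through which noradrenaline starts lipolysis. Its sham arrays were tight at -0.67, -0.66 and -0.84, and all 12 arrays were above background. It measured -4.81, -3.81 and -4.22 at 3 h, -4.03, -4.42 and -3.96 at 12 h, then 0.30, -0.74 and -2.27 at 72 h. The early levels were 8.49% and 9.37% of the sham level on the scale of group means of log2 values. Every 72 h array lay above every early array, but the third was 1.55 below the sham mean.

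Cyp2e1, a cytochrome P450 that oxidises ethanol and other small molecules and is found in liver and fat, was also above background on all 12 arrays. It measured 0.85, 1.43 and 0.15 in the sham control, -3.38, -1.22 and -3.35 at 3 h, -3.34, -2.42 and -3.22 at 12 h, and finally 2.82, 0.46 and -1.70 at 72 h. The third 72 h array lay between the early values, and the 72 h difference moved from -0.28 to 0.83 without it. Aoc3 encodes a cell surface amine oxidase of fat cells, endothelium and smooth muscle. Its levels were 2.15, 2.12 and 1.84 in the sham control, 0.08, 0.61 and 0.54 at 3 h, -0.40, -0.65 and -0.34 at 12 h, then 2.71, 1.83 and 1.24 at 72 h, with no overlap between the early arrays and either of the other groups. C1qtnf2, a secreted relative of adiponectin, had the most even course of the 6. It measured 0.50, 0.34 and 0.07 in the sham control, -1.34, -1.16 and -1.37 at 3 h, -1.62, -1.33 and -1.17 at 12 h, and finally 0.45, 0.45 and 0.11 at 72 h, where all 3 arrays lay within 0.5 of the sham mean.

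**Figure D3:**
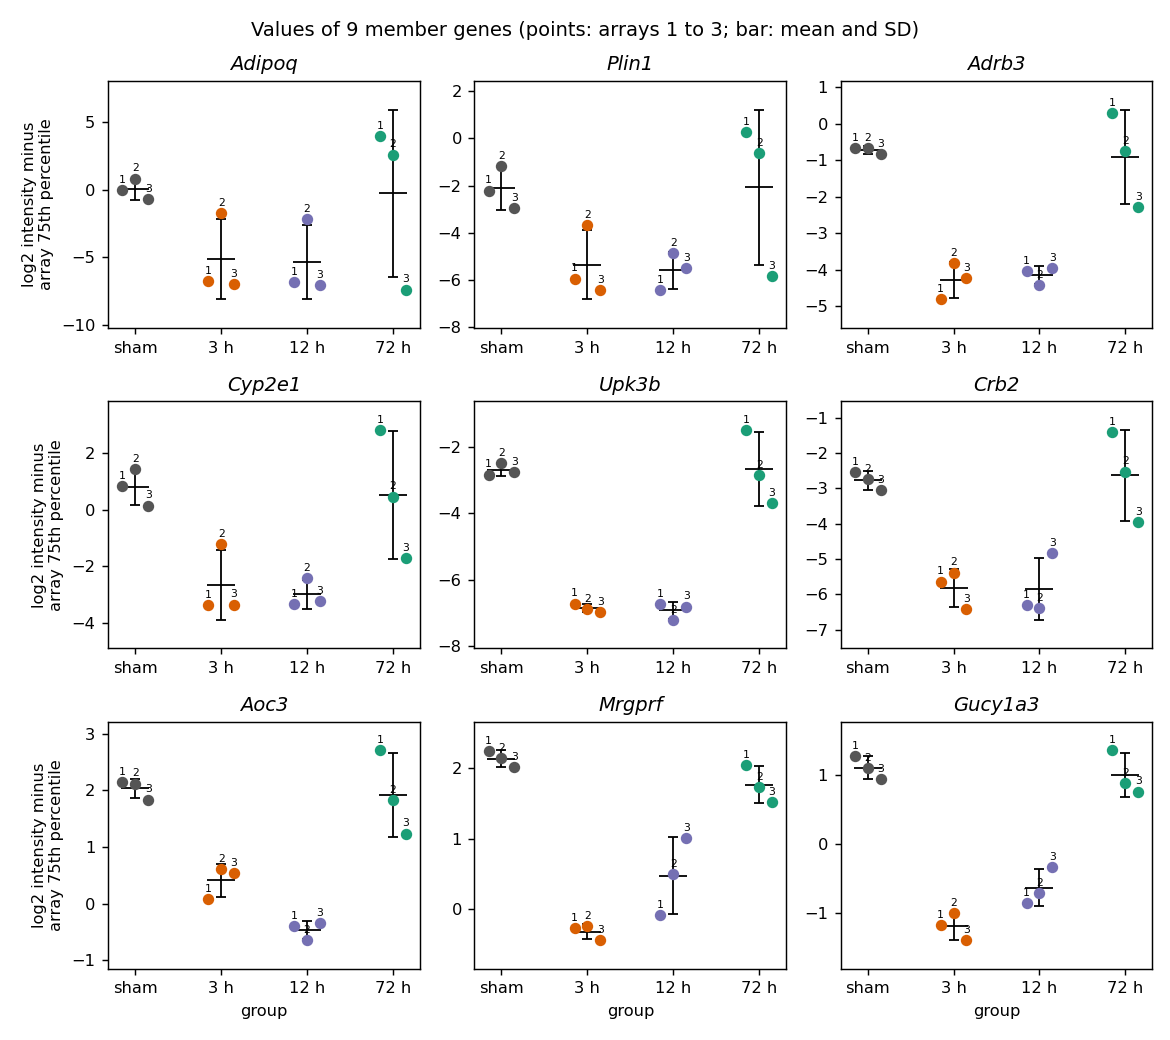
Log2 level, relative to the array's 75th percentile, of 9 members in the 4 groups. Points are arrays, numbered by replicate, and bars are the mean and SD of 3 arrays. In Adipoq, Plin1 and Cyp2e1 the second 3 h array is the highest of its group and the third 72 h array is the lowest, whereas in Mrgprf and Gucy1a3 the 72 h arrays lie together near the sham arrays.

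3 members have a place in the mesothelium or in epithelial polarity, and the early levels of Upk3b and Crb2 were below what the arrays could measure. Upk3b, uroplakin 3b, is a membrane protein of the mesothelium. It measured -2.85, -2.5 and -2.78 in the sham control, -6.72, -6.89 and -6.96 at 3 h, -6.74, -7.20 and -6.80 at 12 h, then -1.5, -2.85 and -3.70 at 72 h. No early array was above background, so Upk3b was at least 4.05-fold lower at 3 h and at least 4.80-fold lower at 12 h. All 72 h arrays were above background, the first above the whole sham range and the third well below it, while the second lay at its lower edge. Crb2, a Crumbs protein that sets the apical side of epithelial sheets, followed the same course, with -2.54, -2.73 and -3.05 in the sham control and -1.40, -2.52 and -3.96 at 72 h. Its early arrays lay between -6.42 and -4.83, none above background, and it was at least 3.86-fold lower at 3 h and at least 4.58-fold lower at 12 h. Gpm6a, a membrane glycoprotein of neurons that is also a mesothelial marker, measured -2.67, -2.52 and -2.86 in the sham control and -2.79, -2.67 and -3.35 at 72 h. It was -4.24, -4.29 and -4.15 at 3 h, where all arrays were above background, and -4.36, -5.80 and -5.21 at 12 h, where 1 was.

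The promoters of 2 fat cell members, Adipoq and Plin1, and of Upk3b and Crb2 are shown as examples of the genes described so far. Each line gives the 250 bases before the RefSeq start of transcription in GRCm38.p6, read 5′ to 3′ on the gene's own strand. Capitals mark a match to one of the motifs named further on. The Adipoq stretch lies at chr16:23146286-23146535 on the plus strand, Plin1 at chr7:79732777-79733026 on the minus strand, Upk3b at chr5:136038246-136038495 and Crb2 at chr2:37775999-37776248, both on the plus strand. C1qtnf2 at chr11:43474056-43474305 and Ecm2 at chr13:49504560-49504809, both on the plus strand, are added as the members with a CACGTG and a TTATGTAA match.
Adipoq: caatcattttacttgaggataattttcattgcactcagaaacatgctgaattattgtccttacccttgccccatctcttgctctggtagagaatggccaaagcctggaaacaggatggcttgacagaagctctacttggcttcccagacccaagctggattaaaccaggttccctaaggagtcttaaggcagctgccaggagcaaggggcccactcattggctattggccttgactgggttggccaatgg
Plin1: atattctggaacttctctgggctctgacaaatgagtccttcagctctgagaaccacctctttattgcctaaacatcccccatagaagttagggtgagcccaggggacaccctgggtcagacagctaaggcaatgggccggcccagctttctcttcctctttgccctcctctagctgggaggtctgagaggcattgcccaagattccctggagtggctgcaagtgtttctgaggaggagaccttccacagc
Upk3b: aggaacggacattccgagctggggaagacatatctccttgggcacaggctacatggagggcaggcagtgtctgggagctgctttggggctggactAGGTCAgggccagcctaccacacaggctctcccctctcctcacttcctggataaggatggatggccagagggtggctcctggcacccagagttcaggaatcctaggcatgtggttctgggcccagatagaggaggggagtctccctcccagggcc
Crb2: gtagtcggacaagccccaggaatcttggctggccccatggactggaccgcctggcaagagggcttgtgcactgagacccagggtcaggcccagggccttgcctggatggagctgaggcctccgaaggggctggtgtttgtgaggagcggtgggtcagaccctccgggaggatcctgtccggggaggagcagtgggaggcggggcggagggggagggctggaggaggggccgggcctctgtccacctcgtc
C1qtnf2: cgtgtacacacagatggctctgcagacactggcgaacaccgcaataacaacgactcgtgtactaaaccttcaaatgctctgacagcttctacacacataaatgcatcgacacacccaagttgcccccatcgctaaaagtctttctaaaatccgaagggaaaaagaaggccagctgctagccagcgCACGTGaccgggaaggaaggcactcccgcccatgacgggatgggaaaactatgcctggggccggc
Ecm2: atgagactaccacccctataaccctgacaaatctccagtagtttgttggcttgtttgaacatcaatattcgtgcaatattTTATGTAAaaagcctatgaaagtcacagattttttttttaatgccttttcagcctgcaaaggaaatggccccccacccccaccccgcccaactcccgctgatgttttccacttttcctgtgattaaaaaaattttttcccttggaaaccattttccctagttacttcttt

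The Upk3b stretch holds AGGTCA starting 155 bases before the start of transcription, the C1qtnf2 stretch CACGTG at 65 bases and the Ecm2 stretch TTATGTAA at 170 bases, while Adipoq, Plin1 and Crb2 hold none of the searched letters. GC content differed among them, from 40.0% in Ecm2 to 68.8% in Crb2. The RefSeq table had a promoter for 34 of the 60 members, 45 in all, since some genes have several starts whose windows can overlap. Their median GC content was 61%, against 52.7% over all 32851 promoters of the table.

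6 motifs were searched on both strands of the 300 bases from 250 before to 50 after each start, and none of the 6 lies inside another. AGGTCA, the core bound by many nuclear receptors, was present in 7 of the 45 member promoters (15.6%) and in 16.3% of all promoters. TGTTCT, the core of the glucocorticoid receptor's element, was in 6 (13.3%) against 19.0%. CACGTG, the E-box of clock and MYC factors, was in 1 (2.22%) against 7.15%, and TTATGTAA, bound by the PAR bZIP clock factors, in 1 (2.22%) against 0.938%. The sterol element TCACNCCAC and the cAMP element TGACGTCA were in 0 of 45, against 1.24% and 1.79%. A match describes letters in these windows only.

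5 members are receptors or sense a signal. Mrgprf, an orphan receptor of the Mas-related family, fell most at 3 h, measuring 2.25, 2.14 and 2.01 in the sham control, -0.27, -0.24 and -0.44 at 3 h, -0.08, 0.50 and 1.01 at 12 h, and finally 2.05, 1.73 and 1.52 at 72 h. Gucy1a3 (now Gucy1a1) encodes the α1 subunit of soluble guanylate cyclase, the nitric oxide receptor of smooth muscle. It measured 1.28, 1.1 and 0.94 in the sham control, -1.18, -1.0 and -1.39 at 3 h, -0.86, -0.71 and -0.34 at 12 h, then 1.36, 0.88 and 0.76 at 72 h. In both genes the early arrays stood clear of the sham and 72 h arrays, and the level at 3 h was 18.3% and 20.4% of the sham level. Gper1, a G protein-coupled receptor that responds to estrogen, measured -2.55, -2.58 and -3.04 in the sham control and -2.43, -2.98 and -2.98 at 72 h. It was -4.78, -4.29 and -4.08 at 3 h. Its 12 h arrays were at -5.71, -5.73 and -4.56, and 1 of them was above background. The membrane progestin receptor family member Paqr6 and the Nogo receptor relative Rtn4rl1 differed by -1.77 and -1.85 at 3 h, -1.94 and -1.54 at 12 h, and finally -0.43 and -0.18 at 72 h.

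6 members act in the matrix or at the cell surface, a grouping made after the names were seen, and 3 of them were above background on all 12 arrays. Between 3 h and 12 h these 3, Igsf10, Tspan18 and Igdcc4, differed by -0.44, -0.42 and -0.18, and none passed the test. Ecm2, a matrix protein with leucine-rich repeats, measured -2.44, -2.85 and -3.01 in the sham control, -4.89, -4.30 and -4.17 at 3 h, -5.23, -5.54 and -5.75 at 12 h, then -2.71, -3.30 and -3.45 at 72 h. At 12 h none of its arrays was above background, and it was at least 4.6-fold lower than in the sham control. Igsf10, a large secreted immunoglobulin protein, was above background throughout, with 0.50, 0.66 and 0.49 in the sham control, -1.34, -1.28 and -2.31 at 3 h, -2.10, -2.13 and -2.02 at 12 h, and finally 0.39, 0.36 and -0.00 at 72 h. All 3 of its 72 h arrays lay below the sham range. Mmp16, a membrane-bound metalloproteinase, was above background on no early array and was at least 1.92-fold lower at 3 h and at least 2.27-fold lower at 12 h. Btnl9, a butyrophilin-like protein, was likewise at background early, at least 1.48-fold lower at 3 h and at least 1.75-fold lower at 12 h. Tspan18, a tetraspanin, and Igdcc4, an immunoglobulin-type surface protein, differed by -1.71 and -1.55 at 3 h and by -2.12 and -1.74 at 12 h.

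7 members are channels, pumps or transporters, and 5 of them were above background on all 12 arrays. The differences of the 7 from the sham control ran from -2.72 to -1.63 at 3 h, -2.10 to -1.57 at 12 h and -0.44 to 0.48 at 72 h. Cybrd1, a ferric reductase, had levels of -0.79, -0.78 and -1.04 in the sham control, -2.45, -2.67 and -3.09 at 3 h, -2.73, -3.02 and -3.15 at 12 h, then -1.19, -1.41 and -1.32 at 72 h. Its 72 h arrays were all below its sham arrays. Slc16a7, a monocarboxylate carrier, had the narrowest early groups of these genes, with -3.34, -3.31 and -3.50 at 3 h and -3.38, -3.35 and -3.35 at 12 h. Atp6v0a4, a proton pump subunit, was scattered at 12 h, at -6.07, -4.12 and -7.04, and only the second of these arrays was above background. The potassium channel Kcna6 and the anion exchanger family member Slc26a10 had 72 h differences of -0.26 and 0.13.

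4 members belong to membrane traffic, namely the small GTPases Rab36, Rab42 and Rab40b and the Golgi protein Tvp23a. Rab42 measured -2.04, -1.75 and -1.88 in the sham control, -4.24, -3.77 and -4.20 at 3 h, -3.55, -4.19 and -4.46 at 12 h, and finally -1.90, -2.22 and -2.28 at 72 h, all above background. Rab36 was above background on no early array and was at least 1.64-fold lower at 3 h and at least 1.94-fold lower at 12 h. The nuclear proteins were Zfhx4, a zinc-finger homeodomain factor, Mn1, a transcriptional coregulator, and Neil2, a DNA glycosylase of base excision repair. Mn1 and Neil2, above background on all 12 arrays, differed by -1.92 and -1.98 at 3 h and by -1.69 and -1.51 at 12 h. Zfhx4 was above background on no 3 h array and was at least 4.09-fold lower there.

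Among muscle and cytoskeletal genes, Speg, a kinase of muscle cells, differed by -1.55 at 3 h, -1.52 at 12 h and -0.39 at 72 h, and Tekt2, a tektin of cilia and flagella, by -1.93, -1.74 and -0.15. Nrep, a small protein made in wound fibroblasts and neurons, measured 2.98, 2.81 and 2.33 in the sham control, 1.13, 0.99 and 1.03 at 3 h, 0.71, 0.51 and 0.51 at 12 h, then 2.97, 2.90 and 2.74 at 72 h. The early replicates of Nrep were close together, its sham arrays were wider apart, and its 72 h arrays were all inside the sham range. The enzymes were the amylase Amy1, whose signal near-identical amylase copies could share, the glycosidase AI464131 (now Myorg) and Scrn1, named as a secernin. Amy1 measured -3.12, -2.70 and -3.79 in the sham control, was above background on no early array, where it was at least 2.87-fold lower at 3 h and at least 3.40-fold lower at 12 h, and was at -0.48, -1.76 and -5.94 at 72 h. Scrn1 stood at 0.37, 0.42 and 0.23 in the sham control, between -2.0 and -1.34 on the early arrays and at 0.70, 0.20 and -0.34 at 72 h. The coding members Prr36, Tmem136 (now Tlcd5) and Tmem229a lay between -2.05 and -1.79 at 3 h and, at 12 h, from -1.64 to -1.51.

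The remaining 17 members were non-coding RNAs, a pseudogene or clone names without a RefSeq entry, and 6 of them were above background on all 12 arrays. Their differences ran from -2.77 to -1.58 at 3 h, from -2.65 to -1.51 at 12 h and from -0.48 to 0.25 at 72 h. The non-coding RNA 2810433D01Rik came back most exactly, with -2.92, -2.97 and -2.99 in the sham control, -5.67, -5.32 and -6.21 at 3 h, -5.02, -4.75 and -5.16 at 12 h, and finally -2.88, -2.85 and -3.18 at 72 h. Its early and late arrays did not overlap, and it was at least 3.40-fold lower at 3 h. AI448005 and 9630010G10Rik, both above background on all 12 arrays, lay at -1.85 and -2.09 at 3 h, -1.61 and -1.61 at 12 h, then -0.46 and -0.20 at 72 h. In all, RefSeq gave 43 members as protein coding, 9 as long non-coding RNA and 1 as a transcribed pseudogene, and had no entry for 7. Members lay on 18 chromosomes by the mm9 probe positions of the array, and no pair was within 500000 bases.

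The return at 72 h was uneven between mice. In 16 of 60 members all 3 arrays at 72 h lay within 0.5 of the sham mean, in 26 members 2 arrays did, in 13 members 1, and in 5 members none. These 5 were Adipoq, Plin1, Amy1, Btnl9 and Copg2os2, an antisense transcript, so for them the name of a recovered gene holds for the mean and for no single mouse. In each of them 72 h replicates 1 and 2 were above the sham mean by more than 0.5 and replicate 3 was below it by 1.26 (Copg2os2) to 7.45 (Adipoq). The 72 h arrays spanned 0.59 in the median member, from 0.06 in Tmem136 to 11.4 in Adipoq, while the sham arrays spanned 0.41. Over the 17988 genes above background in the sham control the 72 h span had a median of 0.31. Those genes were brighter, with a median sham level of 0.40 against -2.09 in the members. They also varied less within the sham control, with a median SD of 0.16 against 0.21. 10 members spanned more than 2, among them Adrb3, Crb2 and Upk3b.

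72 h replicate 3 was the lowest of its group in 46 members (76.7%), against 29.5% of the genes above background in the sham control. Replicate 1 was the highest in 43 (71.7%), against 30.7%. The median member lay at 0.10 on 72 h replicate 1, at -0.17 on replicate 2 and at -0.44 on replicate 3. For 52 members every 72 h array stood above every 3 h and 12 h array, but the rule itself sets the 72 h mean above the early means. Without 72 h replicate 3 the rule gave 50 genes, of which 46 were members, and the members that left included Adipoq, Plin1, Cyp2e1, Upk3b and Crb2. Leaving out 72 h replicate 1 gave 61 genes with 45 members among them, and 14 members were in all of the 12 sets that left out 1 array.

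**Figure D4:**
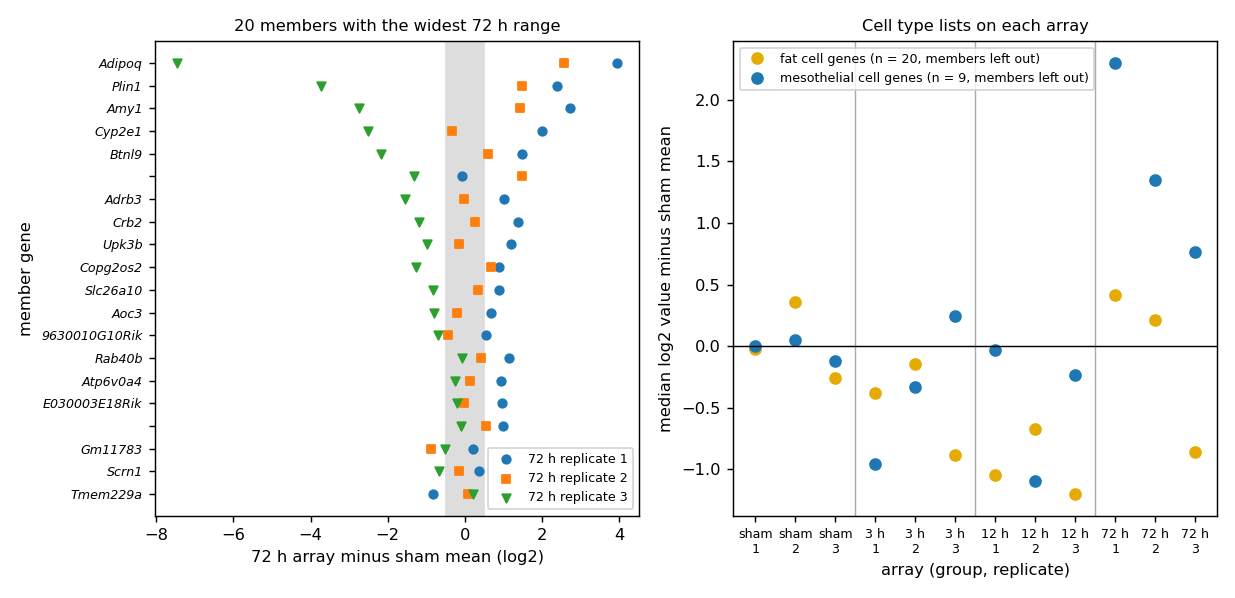
Left, the 72 h arrays of the 20 members with the widest 72 h range, each as its log2 difference from the sham mean, with the grey band from -0.5 to 0.5. Right, the median difference from the sham mean on each array over the fat cell list (20 genes) and the mesothelial list (9 genes) after their members were left out. On 72 h replicate 3 the fat cell median was -0.86, while it was 0.42 and 0.22 on replicates 1 and 2.

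Other fat cell genes moved on the same arrays. In a list of 24 fat cell genes, 23 were measured and 3 are members. Over the 20 others the median difference from the sham mean was 0.42, 0.22 and -0.86 on the 72 h arrays, and 8, 7 and 1 of them were higher by more than 1, while 2, 2 and 8 were lower by more than 1. Cfd, the fat cell protease adipsin, measured 3.48, 4.18 and 2.88 in the sham control, -7.20, 1.88 and -6.99 at 3 h, -7.45, 1.18 and -7.15 at 12 h, and finally 6.57, 4.77 and -7.45 at 72 h. Car3, a carbonic anhydrase abundant in fat, showed the same split, with 5.55, 4.04 and -5.27 at 72 h. The general markers Pparg and Cebpa, which other gut cells also express, differed from the sham control by 0.08 and 0.18 at 3 h and by -0.48 and 0.18 at 12 h. Ucp1, the mark of brown fat, was above background on no array. The summed signal of the list, in units of each array's 75th percentile, ranged from 113 to 180 in the sham control, 116 to 130 at 3 h, 106 to 142 at 12 h and 102 to 438 at 72 h. How much fat each piece of tissue held was not measured, and its part in the result was not tested.

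By limma 4 of the 23 fat cell genes were called lower at 3 h and none higher, and they were the member Adrb3, Slc2a4, Acvr1c and Lipe. Adrb3 was selected for its low early level, which leaves 3 called genes without members. The median difference over the 20 genes that are no members was -0.60 at 3 h and -1.08 at 12 h. It was uneven between mice, with -0.38, -0.14 and -0.88 on the 3 h arrays and -1.05, -0.68 and -1.20 on the 12 h arrays. Slc2a4, the insulin-responsive glucose transporter, fell by 1.70 (SE 0.195, adjusted p = 0.000411 by limma). At 12 h 4 were called lower, 3 of them no members, and Dgat2, the last enzyme of triglyceride synthesis, higher. At 72 h 2 were called lower, Slc2a4 and Cidea, and none higher. Without 72 h replicate 3 the same fit called 2 lower and 3 higher of the 23, members included. The list median, members included, moved from -0.18 to 0.50. Both medians are the values of Adrb3, a member selected for its 72 h level, so nothing is read from them. Over the 20 genes that are no members the 72 h median was -0.21 with all arrays. With slide as a covariate 1 of the 23 was called at 72 h.

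The mesothelial list had 12 genes, 11 of them measured, with Upk3b and Gpm6a as members. At 3 h 5 of the 11 were called lower by limma and Pdpn, podoplanin, higher, and the same counts were found at 12 h. These include both members, which were selected for low early levels, and 3 were called lower at each time without them. Over the 9 others the median moved from -0.93 (3 h) and -0.83 (12 h) to 1.49 (72 h). It was uneven between mice, with -0.96, -0.33 and 0.24 on the 3 h arrays and -0.03, -1.09 and -0.23 on the 12 h arrays. Rspo1, a secreted Wnt activator, measured -0.78, -0.80 and -0.97 in the sham control, between -4.23 and -2.85 on the early arrays and 1.51, 0.49 and -0.09 at 72 h. Lrrn4, a membrane protein of the mesothelium, was above background on no early array and at least 3.61-fold lower at 3 h, and its 72 h difference was 0.88. Wt1, the transcription factor of the mesothelium, differed by 0.02 at 3 h and 0.20 at 12 h and rose by 4.40 at 72 h (SE 0.577, adjusted p = 0.000787 by limma), with 3.03, 1.47 and 1.20 on its arrays. At 72 h 5 of the 11 were called higher and none lower, or 6 and none without 72 h replicate 3. The number called was 2 with slide as a covariate and 3 with normexp background correction. Msln, mesothelin, was scattered at the early times, with -5.18, 0.59 and 1.17 at 3 h and 0.89, -1.62 and 1.0 at 12 h, and was not called at any time.

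None of the 60 members was in the other 18 lists, which covered lipid and sterol metabolism, the clock, epithelium, muscle, nerve, vessels and immune cells. Smooth muscle genes were low early and stayed low, with medians of -0.89 at 3 h, -1.48 at 12 h and -1.45 at 72 h and 10 of 15 called lower at 72 h. Endothelial genes were near the sham level early (median -0.35 and -0.28) and 9 of 16 were called higher at 72 h, but 1 was called with slide as a covariate. Neutrophil genes had a median of 4.21 at 3 h, 6.18 at 12 h and 4.09 at 72 h, and resident macrophage genes of -0.03, -0.11 and 1.38. With slide as a covariate 9 neutrophil genes were called at 72 h in place of 11, and 6 macrophage genes in place of 10. A rise in RNA of cells that entered the tissue lowers the share of all other RNA, and its part in the members' levels was not tested.

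The members showed no common shift between 3 h and 12 h. The 12 h mean was lower than the 3 h mean in 31 members and higher in 29, with a median difference of -0.04, against -0.11 over all named genes. These counts include the 17 members with no early array above background. This difference was tested by limma on the same arrays that chose the members, and the requirement that both means be at or below -1.5 limits which differences can occur. 1 member was called lower at 12 h, where 1.90% of all named genes were called lower. 0 were called higher, where 2.16% were. At an unadjusted p below 0.05, 7 members were lower and 6 higher, while 16.1% and 10.9% of all named genes were. None of these counts exceeded the share over all named genes, so no difference between the early times is read from them. For the most scattered member, Adipoq, the difference was -0.20 with an SE of 2.71.

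The called gene was Ecm2, with a fitted difference of -1.05 (12 h minus 3 h, log2, SE 0.257, adjusted p = 0.0331 by limma) and all 3 of its 12 h arrays below all 3 h arrays. None of those 12 h arrays was above background, so the fitted value and its call rest on levels at background. At 3 h 2 of its arrays were above background, and the first, at -4.89, was not. With that array at its measured level, the lowest measurable signal at 12 h differed from the 3 h mean by -0.51. That is 1.43-fold, below the 2-fold limit of a call, and it is no strict bound. The call was lost without sham replicate 2 (adjusted p = 0.0509 by limma), 3 h replicate 2 (0.109), 3 h replicate 3 (0.0957), 12 h replicate 1 (0.0512), 12 h replicate 2 (0.0828) and 12 h replicate 3 (0.106). Mrgprf, above background on all 12 arrays, was 0.79 higher at 12 h (SE 0.241, adjusted p = 0.0727 by limma), which became 1.07 (adjusted p = 0.0218) without 12 h replicate 1. Without 12 h replicate 1 Gpm6a was called lower (-1.28, adjusted p = 0.0225) and without 12 h replicate 3 Gper1 was (-1.34, adjusted p = 0.0244), both by limma and both with 1 of their 3 arrays at 12 h above background. E030003E18Rik and A730056A06Rik were called lower in 1 fit each that left out an array, but neither had an early array above background, so those fits compared background with background.

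**Figure D5:**
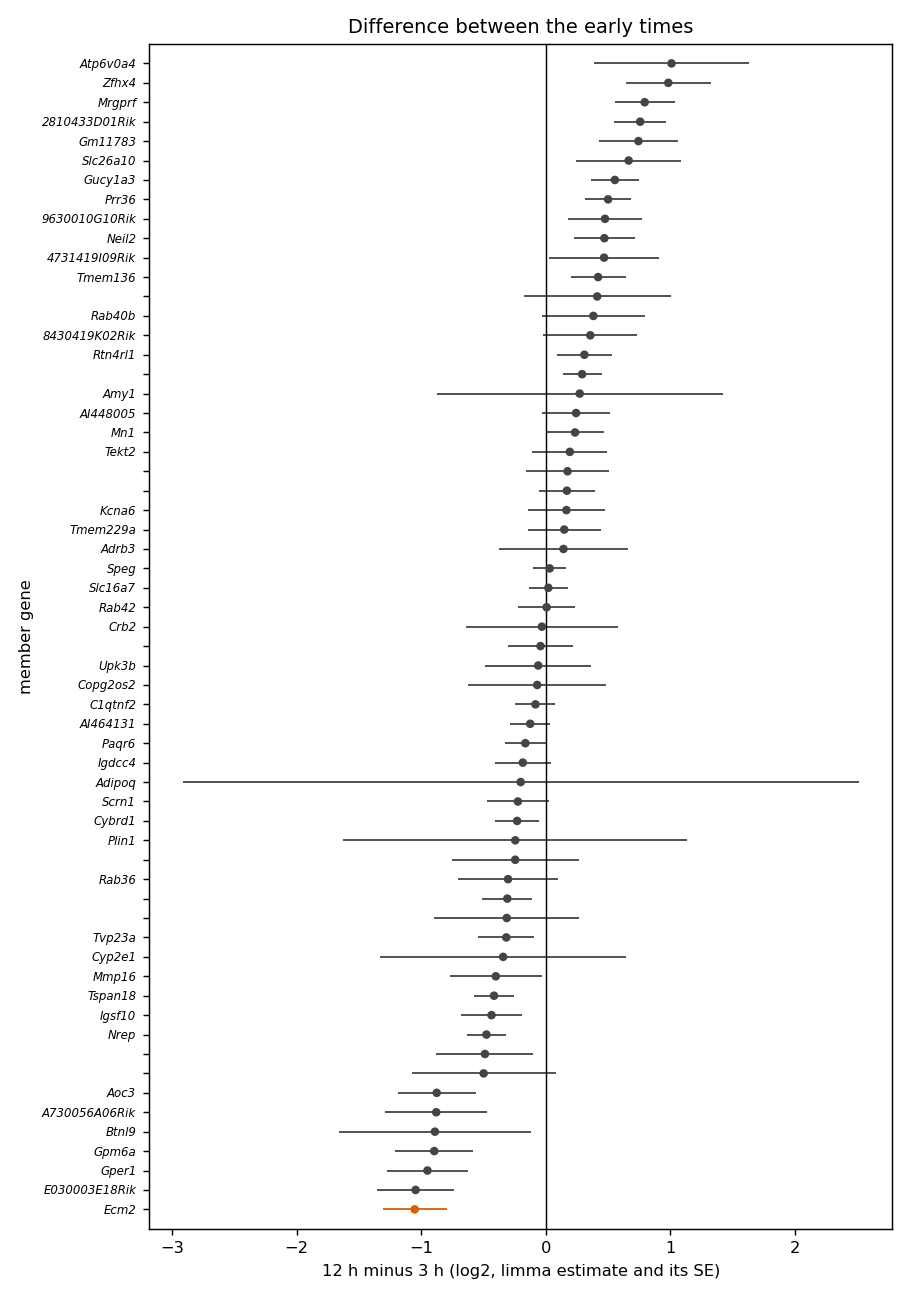
Difference of the 12 h mean from the 3 h mean (log2) of each of the 60 members, with the standard error of the limma fit as a bar. Points left of 0 were lower at 12 h. Ecm2, in orange, is the one gene past the threshold, with no 12 h array above background, and the longest bars belong to Adipoq, Plin1 and Amy1.

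A second probe of the same gene was available above background for 16 members. Of these, 13 were below the sham control at both early times, 9 by at least 1, and 7 were within 0.5 at 72 h. The other probes of Cyp2e1, Rab42 and Mrgprf met the whole rule, with 3 h differences of -4.45, -1.66 and -2.20. By contrast the other probe of Aoc3 lay at 0.03 at 3 h and -0.07 at 12 h, that of Neil2 at 0.01 and -0.05, that of Slc16a7 at 0.48 and 0.63, and that of Plin1 at -0.48 and -0.16. The other probes of Tspan18 (-0.59 and -0.38) and Paqr6 (-0.38 and -0.56) also showed less than the brightest probe. For these 6 genes the course given above rests on the brightest probe. Probes of 1 gene can lie on different transcripts, which was not examined.

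All 72 h arrays shared the second slide with 12 h replicate 3 alone. On the first slide the median 12 h difference from the sham control was -2.04, with 56 members at or below -1.5 and all 60 at or below -1. On the second slide the 72 h mean was above 12 h replicate 3 in 60 of 60 members, with a median of 1.63 and 48 members at 1 or more. The rule chose the members on these same 12 h and 72 h values. The counts on each slide therefore follow largely from the rule and are no check on the slide. With slide as a covariate the 72 h median was -0.42, and 28 members stayed within 0.5 of the sham control, 26 lay below and 6 above. Under that fit 39 genes met the rule and 27 of them were members, so the place at 72 h moved with this choice, whereas the 3 h and sham arrays shared a slide. The covariate was set by 12 h replicate 3 against replicates 1 and 2 alone. The slide therefore cannot be told apart from the scatter of that 1 array. The number of genes also moved with the background correction. After normexp correction of the raw spot means with an offset of 50, 5 genes met the rule and 2 of them were members. The offset makes log2 differences of dim genes smaller while the limits stayed the same. That count is therefore not comparable with the 60.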

How the data were processed

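The authors hybridised RNA of 12 ceca to 1-colour arrays, and the scanner output they deposited holds a background-corrected intensity per spot from Agilent Feature Extraction, not normalized between arrays. Their own log2 values, deposited as a table, had been normalized to the 75th percentile with GeneSpring, and the values show a centre on each row's median. They served as an alternative. From the intensities, outlier spots and controls were left out, spots of a probe were averaged, and log2 minus the array's 75th percentile was taken. The gene's probe with the highest mean was used. Group means were fitted with limma 3.58.1 (R 4.3.3) over all 12 arrays and adjusted by Benjamini-Hochberg over 56605 probes, with calls at a fold above 2 and adjusted p below 0.05. The fit was tested on simulated data. The number of arrays limits the precision, and p-values measure the spread between 3 mice per group, which the study calls biological triplicates.

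The members and the 20 gene lists were chosen with earlier results of these data known. Named are the 12 members with the lowest mean early difference, those in a list, those called between 12 h and 3 h, up to 3 on either side of each limit and those with a known role, and up to 5 called genes a list. Other genes, such as Cfd, Car3, Pparg, Cebpa, Msln, Copg2os2, E030003E18Rik, A730056A06Rik, AI448005, 9630010G10Rik and the Mrgprf, Gper1 and Gpm6a calls of single fits, were named after their values were seen. Replicate numbers come from the titles. Deviations of same-numbered arrays correlated from -0.40 to 0.26 and those of other numbers from -0.30 to 0.39, so the numbers were not taken as pairs. Alternatives covered normalization, background correction, probes, filters, limits, slide, replicate block and each array left out. Promoters are from RefSeq (GRCm38.p6). A few genes are not reported here.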

Additional observations from a re-analysis of the deposited data

Results flagged for a closer look

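Ecm2 differed between the early times in the fit, with a difference of -1.05 on the log2 scale (12 h minus 3 h, SE 0.257, adjusted p = 0.0331 by limma). All 3 arrays at 12 h lay below all 3 arrays at 3 h. None of these 12 h arrays was well above background, so the fitted value rests on background levels. At 3 h 2 arrays were above background. With the other at its measured level, the lowest measurable signal at 12 h differed from the 3 h mean by -0.51, or 1.43-fold, which is no strict bound.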

How the results depend on the processing

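With 60 genes meeting the rule in the values as reported, quantile normalization, the 75th percentile over bright probes, the authors' table, outlier spots kept, the sham arrays deciding the brightest probe, no background filter and centring on the median of all probes each gave between 51 and 75 genes. The count moved to 5 (2 of them members) with normexp background correction, whose offset of 50 makes log2 differences of dim genes smaller. It was 39 with the mean of all probes, 32 with all 12 arrays above background and 39 with slide as a covariate. Early limits of -1 and -2 gave 249 and 14 genes, and 72 h limits of 0.25 and 1 gave 30 and 112. Leaving out 1 array gave 49 to 70 genes. For members lower at 12 h than at 3 h, the count of 1 became 2 with quantile normalization and 0 with normexp, with the percentile over bright probes, with the 3 h and 12 h arrays alone, with the replicate block and by the methods' t-test, unadjusted or adjusted, and ran from 0 to 2 over the arrays left out. Under slide as a covariate the 1 call was Gper1 in place of Ecm2. For this contrast that fit gave the same values as leaving out 12 h replicate 3, so it is no separate check. For members higher at 12 h it ran from 0 to 1 over the arrays left out and was 0 elsewhere. Among the 60 counts of called list genes, 36 stayed within 1.5 times under normexp, 50 under quantile normalization, 45 with slide and 58 with the replicate block. The causes were not tested. Signal over background limits the early levels, since 17 members had no early array above it.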
